A study of Mus musculus with 18 samples.

Results

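The genes described here are 8 transporters of amino acids in the mouse liver: Slc7a2, Slc38a2, Slc38a3, Slc38a4, Slc43a1, Slc3a1, Slc3a2 and Slc7a5. They were picked by symbol and make up 8 of the 19057 gene symbols of a table of RPKM, which divides reads by the length of the transcript and by library size. They were picked with earlier results of these data in view. Slc7a2 was a leading riser in mice given streptozotocin against control mice, and the values behind the choice of the other 7 are not recorded, so that contrast is described here without a test.

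Amino acids cross the sinusoidal membrane of the hepatocyte on carriers of several families, and uptake sets how much substrate reaches gluconeogenesis, the urea cycle and protein synthesis. Sodium-coupled carriers of the Slc38 family take up small neutral amino acids and glutamine, members of the Slc7 family carry cationic or large neutral amino acids, and the Slc3 proteins are the heavy chains that bring some Slc7 carriers to the cell surface. Hepatic uptake of gluconeogenic amino acids is known to rise when insulin is low and glucagon is high.

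Livers came from ICR mice at 10 weeks of age, male by the methods of the study, in 6 groups of 3. The Con group had a regular diet and saline, and the STZ group had a single injection of streptozotocin, a toxin taken up by pancreatic beta cells that gives a model of type 1 diabetes. The Con-FMT group received STZ and then oral inoculations of small intestinal microbiota from control donors, and the A10-FMT group received STZ and then microbiota from donors dosed with alginate oligosaccharide (AOS) at 10 mg/kg; the microbiota of the donors of a group were pooled. The AOS group (10 mg/kg) and the STZ+AOS group (STZ with AOS at 10 mg/kg) occur only in the sample labels, and the timing of their doses was not given in the sources used here. The labels number the 3 libraries of a group without stating that each is a separate mouse; they are called mice below, and p-values measure only the spread between these samples.

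The 8 members differed widely in level, which RPKM allows to compare per length of transcript. Slc38a3 and Slc38a4 made up 60.0% ± 2.38 and 26.7% ± 3.80 of the summed RPKM of the 8 in Con (mean ± SD, n = 3), while Slc7a5, which most adult hepatocytes barely express, held 0.142% ± 0.0451. The tissue matched its label: 7 of 8 hepatocyte markers were in the table, none of them under 1 RPKM in all libraries, and their summed RPKM ran from 39900 to 62800. Kidney tubule markers, relevant because Slc3a1 is a kidney gene as well, were at 0.20 RPKM or less in every library except Kap, a kidney androgen-regulated gene, which reached 5.02 RPKM in Con-FMT mouse 1.

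The library of STZ+AOS mouse 3 stood apart. In it 7 pancreatic acinar markers (all of the list but Cela1, which all these livers contained) lay between 3.31 and 36.45 RPKM and summed to 75.9 RPKM, against at most 1.34 RPKM each and a sum of at most 2.41 in the other 17 libraries. The same library had the highest Slc7a2, Slc38a2 and Slc3a2 values of all 18, so the members' differences and the counts for gene lists in contrasts with STZ+AOS are given with and without it, and the part of acinar RNA in these values was not tested. Summed RPKM of whole libraries was 621121 to 712798 in the groups given STZ and 717904 to 806937 in those without it, so these sums differed with STZ. Each library held 9955 to 10409 genes at 1 RPKM or more. Read depth is not part of RPKM. Steps between the lowest values of 17 genes put the libraries at 0.928 to 1.1 of a common depth, an estimate whose settings were chosen after seeing the data. The search began from equal depth and kept only genes whose values fitted whole steps. It therefore favoured results near equal depth and cannot exclude large differences in depth.

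Start-site windows of the members were read to set the changes beside the sequence around listed start sites. RefSeq windows of 300 bases (250 before the start site and 50 from it, GRCm38.p6) held 7 windows of 5 members. Those of Slc38a2 and Slc3a2, which were higher in STZ mice, are printed 5′ to 3′ along the gene's strand. So are those of Slc38a4 at its outermost listed start and of Slc3a1, the member that was lower in STZ. The Slc3a2 window lies inside the GENCODE bounds of the gene (8706882 to 8723369), so its start is not the outermost one. Capitals mark TATAAA or CCAAT on either strand (TTTATA or ATTGG on the strand shown), and overlapping matches run together.

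Slc38a2, chr15:96699679-96699978, minus strand: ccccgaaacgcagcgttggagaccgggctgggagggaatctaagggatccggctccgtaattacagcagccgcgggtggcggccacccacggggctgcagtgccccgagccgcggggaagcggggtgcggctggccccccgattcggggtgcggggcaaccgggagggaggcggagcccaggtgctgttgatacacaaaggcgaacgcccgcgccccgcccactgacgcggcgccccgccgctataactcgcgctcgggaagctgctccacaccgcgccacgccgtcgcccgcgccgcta

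Slc38a4, chr15:97055907-97056206, minus strand: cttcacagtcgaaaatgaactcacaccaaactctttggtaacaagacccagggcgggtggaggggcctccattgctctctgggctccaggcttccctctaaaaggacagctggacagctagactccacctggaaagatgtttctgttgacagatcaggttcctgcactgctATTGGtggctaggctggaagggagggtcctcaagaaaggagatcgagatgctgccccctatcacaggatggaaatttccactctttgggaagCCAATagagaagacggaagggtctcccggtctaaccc

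Slc3a2, chr19:8713848-8714147, minus strand: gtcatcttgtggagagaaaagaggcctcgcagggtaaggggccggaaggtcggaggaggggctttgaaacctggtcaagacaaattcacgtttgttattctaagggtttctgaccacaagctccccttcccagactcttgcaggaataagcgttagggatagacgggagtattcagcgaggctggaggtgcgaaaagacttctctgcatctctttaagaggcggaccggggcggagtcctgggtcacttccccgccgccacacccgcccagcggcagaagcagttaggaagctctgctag

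Slc3a1, chr17:85028097-85028396, plus strand: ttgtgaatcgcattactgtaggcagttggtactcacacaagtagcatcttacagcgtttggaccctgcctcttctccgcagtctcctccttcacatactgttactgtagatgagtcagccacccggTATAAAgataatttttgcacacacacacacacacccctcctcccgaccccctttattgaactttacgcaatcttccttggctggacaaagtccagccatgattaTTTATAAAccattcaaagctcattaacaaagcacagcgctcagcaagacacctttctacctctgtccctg

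The Slc38a2 window had a GC content of 73.0% and the Slc3a1 window 46.3%, against a median of 52.7% over 32851 windows of the same length. TATAAA, the core of the TATA box, was in 3 of the 7 member windows and in 13.6% of all windows; Slc3a1 carried matches beginning 124, 20 and 18 bases before its start site (the last 2 overlap on opposite strands). CCAAT was in 4 of 7 and in 37.4% of all. The amino acid response core TGATGNAA was found in 0 of 7 windows (3.97% of all), and the forkhead core TGTTTAC in 0 of 7 (3.65% of all). These letters are absent from these windows only, and nothing about the factors follows from that.

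**Figure D1:**
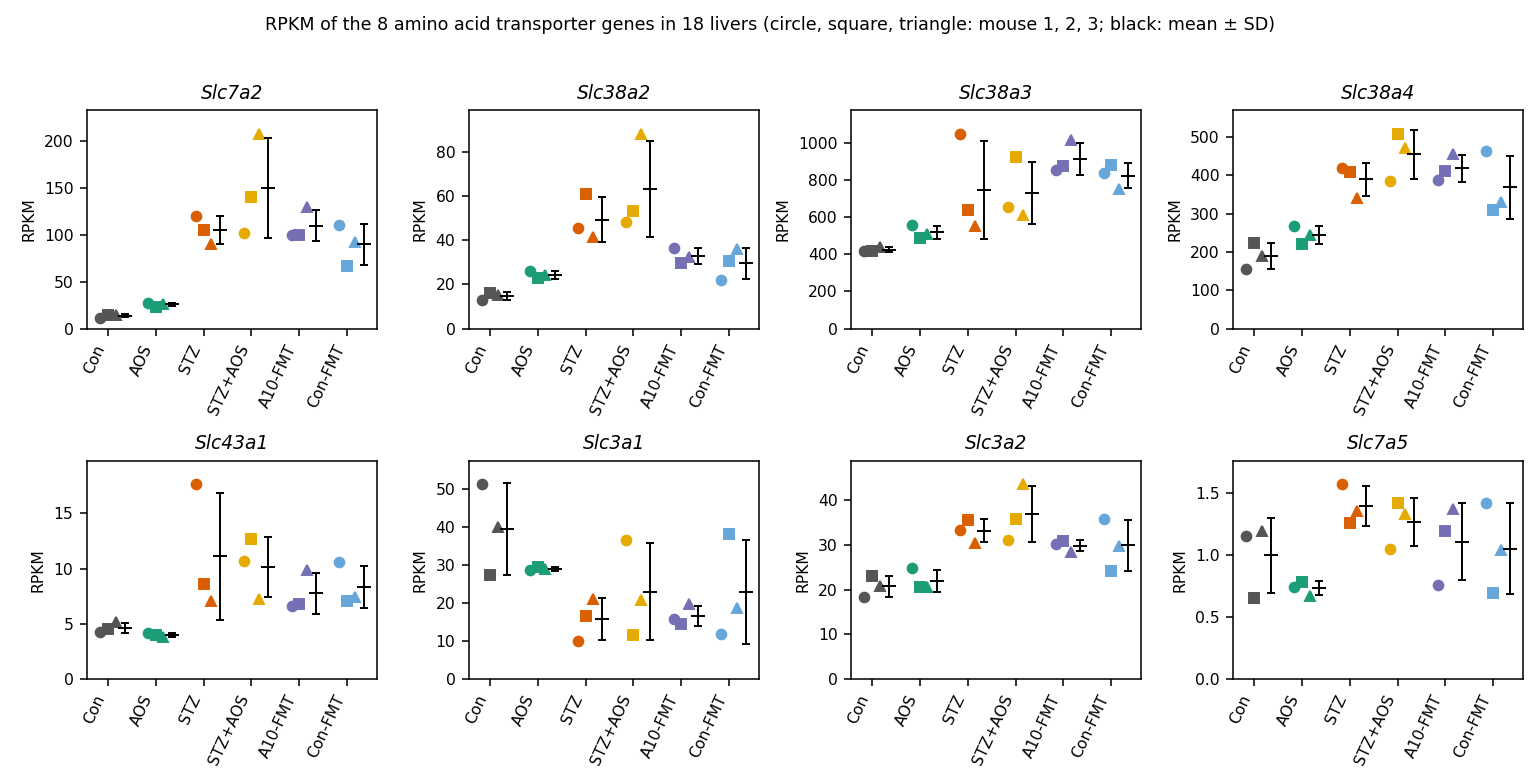
RPKM (linear axes from 0) of the 8 transporter genes in each of 18 livers, grouped by treatment; symbols are mice 1 to 3 and black bars are mean ± SD (n = 3). Slc7a2 sat at 11.69 to 27.27 RPKM in the 6 mice without STZ and at 66.86 to 208.24 in the 12 mice given STZ, Slc3a1 was highest in Con, and all Slc38a2 values of the transplanted mice lay below those of the STZ mice.

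STZ mice had higher levels of 7 of the 8 transporters than Con mice and a lower level of Slc3a1, with no overlap between the groups for any of the 8; over all 10602 genes tested, 47.7% had groups that did not overlap. Slc7a2, Slc38a2, Slc38a4 and Slc43a1 were at least 2-fold higher on the log2(RPKM + 1) scale and Slc3a1 at least 2-fold lower, while 6.54% of all genes were 2-fold apart in either direction. The median log2 difference was 0.88 over the 8 and 0.21 over all genes. This contrast chose the list in part, so nothing is read from these counts.

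Slc38a2 (SNAT2, chromosome 15, 96687392 to 96699730 in GRCm38) is the regulated carrier of the classical system A, induced by amino acid shortage and by glucagon. Its RPKM were 13.00, 16.28 and 15.12 in the Con mice and 45.40, 61.12 and 41.65 in the STZ mice. The lowest STZ mouse was above the highest Con mouse by more than 2-fold. The group means were 14.8 ± 1.66 and 49.4 ± 10.3 RPKM, a log2 difference of 1.66 (SE 0.18).

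Slc38a4 (SNAT4, chromosome 15, 96994820 to 97055956), a liver-enriched system A carrier and an imprinted gene in mice, measured 156.80, 223.27 and 188.31 RPKM in Con. In STZ it measured 418.71, 408.83 and 341.22 RPKM. All STZ mice lay above all Con mice, and the log2 difference was 1.05 (SE 0.18). The mean ratio of Slc38a2 to Slc38a4 was 0.0787 ± 0.00518 in Con and 0.127 ± 0.0209 in STZ, with the ranges 0.0729 to 0.0829 and 0.108 to 0.149.

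Slc38a3 (SNAT3, chromosome 9, 107650634 to 107669530) is the system N carrier that moves glutamine and histidine across the hepatocyte membrane in either direction. It was the most abundant member in every group, at 417.62, 416.14 and 439.07 RPKM in Con. The STZ mice were spread widely, at 1049.53, 637.19 and 554.66 RPKM. Mouse 1 drove the mean of 747 ± 265 RPKM: the log2 difference was 0.76 (SE 0.20) with it and 0.49 without it.

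Slc7a2 (CAT2, chromosome 8, 40862396 to 40922308) carries arginine, lysine and ornithine, and its liver form has a low affinity and high capacity. Con mice had 11.69, 14.66 and 14.08 RPKM and STZ mice 120.78, 105.45 and 90.66 RPKM. This was the widest gap among the 8, a 7.84-fold difference of means and a log2 difference of 2.88 (SE 0.18). As a share of the summed RPKM of the 8, Slc7a2 was 1.90% ± 0.148 in Con and 7.91% ± 0.685 in STZ.

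Slc43a1 (LAT3, chromosome 2, 84838850 to 84863594) is a sodium-independent carrier of branched-chain amino acids and phenylalanine. It read 4.28, 4.50 and 5.17 RPKM in Con and 17.65, 8.59 and 7.06 RPKM in STZ. STZ mouse 1 was again the highest, as for Slc38a3, and the log2 difference went from 1.00 (SE 0.27) to 0.64 without it. Leaving out this mouse left 3 of 8 members 2-fold apart in place of 5, and so did leaving out Con mouse 1 or rescaling the libraries by median ratios or quantiles. Of all 10602 genes, 693 were 2-fold apart with all mice, 628 without STZ mouse 1 and 597 under median-ratio scaling.

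Slc7a5 (LAT1, chromosome 8, 121881150 to 121907694), the large neutral carrier of proliferating cells, and its heavy chain Slc3a2 (4F2hc, CD98, chromosome 19, 8706882 to 8723369) were measured at very different levels. Slc3a2 gave 18.36, 22.98 and 20.75 RPKM in Con and 33.35, 35.62 and 30.51 in STZ, a log2 difference of 0.66 (SE 0.13). Slc7a5 gave 1.15, 0.65 and 1.19 RPKM in Con and 1.57, 1.26 and 1.35 in STZ, a log2 difference of 0.27 (SE 0.16) that the added 1 understates. Slc3a2 therefore stood 22.9 ± 10.8 times above Slc7a5 in Con and 24.0 ± 3.73 times in STZ.

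Slc3a1 (rBAT, chromosome 17, 85028376 to 85064236) is the heavy chain of the cystine and dibasic amino acid exchanger, best known from kidney and from cystinuria. It was the exception among the 8, at 51.25, 27.21 and 40.03 RPKM in Con and 10.04, 16.44 and 20.94 RPKM in STZ. The means were 39.5 ± 12 and 15.8 ± 5.48 RPKM, a log2 difference of -1.28 (SE 0.37). The spread among mice was wide in both groups.

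Mice given AOS were not part of that contrast and give the same comparison in other animals. There too Slc7a2, Slc38a2, Slc38a4, Slc43a1, Slc3a2 and Slc7a5 were higher with STZ. Whether values of these mice also entered the choice of the list is not recorded, so these tests may not be independent of it. STZ+AOS against AOS was tested in the fit of all 6 groups (limma on log2(RPKM + 1), two-sided, Benjamini-Hochberg over 10822 genes). Of the 8 members, 6 passed an adjusted p of 0.05, all higher in STZ+AOS, where 37.9% of all genes passed and 31.8% were higher. The median log2 difference was 0.80 over the members and 0.21 over all genes. Without STZ+AOS mouse 3, the library with acinar markers, 5 members were called. The share of all genes called in that fit is not given here.

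Slc7a2 was 27.27, 23.43 and 26.56 RPKM in AOS and 102.02, 140.33 and 208.24 RPKM in STZ+AOS. The log2 difference was 2.44 (SE 0.22, limma adjusted p 6.86e-06), and it was 2.18 (adjusted p 2.23e-05) without STZ+AOS mouse 3. Slc38a2 rose from 26.09, 22.75 and 24.31 RPKM to 48.26, 53.54 and 88.44 RPKM. Its log2 difference was 1.29 (SE 0.21, limma adjusted p 0.00057), and 1.03 (adjusted p 0.00165) without that mouse. For both genes the other STZ+AOS mice were still above every AOS mouse.

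Slc38a4 rose from 267.75, 221.07 and 245.21 RPKM in AOS to 384.28, 509.33 and 471.60 RPKM in STZ+AOS (log2 difference 0.89, SE 0.17, limma adjusted p 0.00145). Slc43a1 rose from 4.15, 3.99 and 3.83 RPKM to 10.64, 12.63 and 7.23 RPKM (1.13, SE 0.26, limma adjusted p 0.004). Slc3a2 rose from 24.75, 20.50 and 20.66 RPKM to 31.18, 35.83 and 43.62 RPKM (0.71, SE 0.14, limma adjusted p 0.00184). All 3 genes were separated without overlap, as were 40.5% of all genes in that direction, and without mouse 3 their log2 differences were 0.86, 1.34 and 0.59, each still called.

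Slc7a5 passed narrowly, with 0.74, 0.78 and 0.67 RPKM in AOS and 1.05, 1.42 and 1.33 RPKM in STZ+AOS (log2 difference 0.39, SE 0.15, limma adjusted p 0.0485). Leaving out 1 mouse at a time ended that call in 5 of 6 fits (adjusted p 0.0427 to 0.123, and 0.105 without STZ+AOS mouse 3), and it held only without STZ+AOS mouse 1; it was also lost under median-ratio scaling (0.198). Slc38a3 did not pass the test: AOS mice had 556.51, 488.28 and 507.00 RPKM and STZ+AOS mice 654.28, 922.72 and 612.25 RPKM, a log2 difference of 0.47 with a 95% interval of 0.05 to 0.90 before adjustment (limma adjusted p 0.0741). Slc3a1 overlapped between the groups, at 28.55, 29.56 and 28.89 RPKM in AOS and 36.64, 11.50 and 20.82 RPKM in STZ+AOS (log2 difference -0.46, SE 0.40, limma adjusted p 0.37). Without mouse 3 these differences were 0.59 for Slc38a3 (limma adjusted p 0.0536) and -0.47 for Slc3a1 (adjusted p 0.452).

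**Figure D2:**
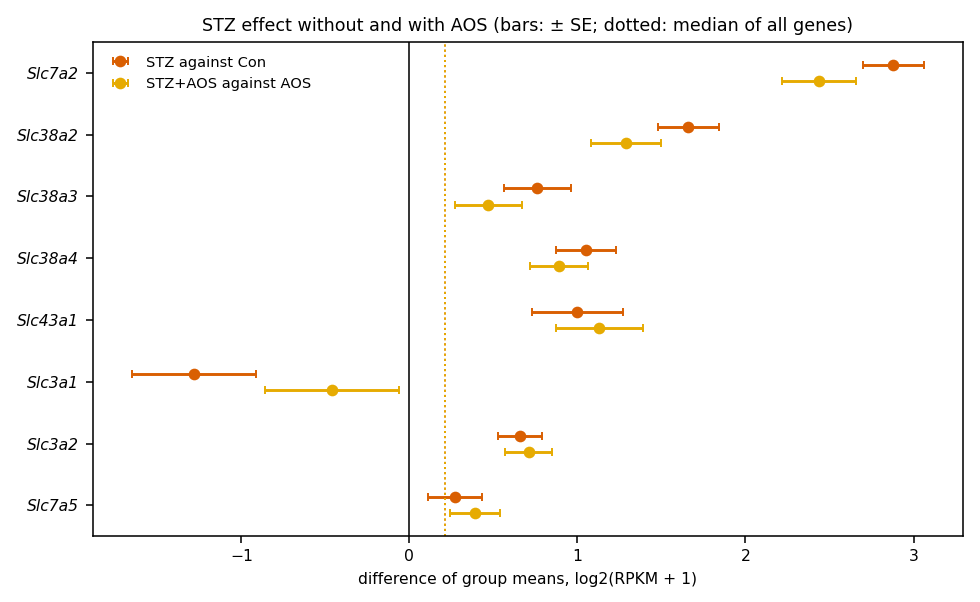
Difference of group means in log2(RPKM + 1) for each transporter, STZ against Con and STZ+AOS against AOS; points are estimates, bars are ± SE, and dotted lines (0.21 in both) are the median of all genes. Slc7a2 was 2.88 and 2.44, Slc3a1 was -1.28 and -0.46, and the other 6 genes were above 0 in both contrasts.

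Side by side, the STZ differences without and with AOS were 2.88 and 2.44 for Slc7a2, 1.66 and 1.29 for Slc38a2, and 1.05 and 0.89 for Slc38a4. AOS mice themselves had higher Slc7a2 and Slc38a2 values than Con mice, with no overlap. The difference between these 2 effects was not tested for the members, because the first of them was used to choose the list. Over all 10822 genes, 0 differed between the effects at an adjusted p under 0.05 in limma, and 584 at an unadjusted p under 0.05.

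AOS against Con had 0 of 8 members called, with 1 gene called among all (0.00924%) and 3 members at an unadjusted p under 0.05 (7.22% of all genes). These contrasts use the Con mice a second time, and STZ+AOS against STZ uses the STZ mice, so they are not independent of the choice of the list. Slc7a2 was 13.5 ± 1.57 RPKM in Con and 25.8 ± 2.04 in AOS (log2 difference 0.89, limma adjusted p 0.443), and Slc38a2 was 14.8 ± 1.66 and 24.4 ± 1.67 RPKM (0.69, adjusted p 0.535). For both genes, and for Slc38a3, every AOS mouse lay above every Con mouse, as in 19.1% of all genes. When only the 6 AOS and Con libraries were fitted, Slc7a2 (adjusted p 0.0175) and Slc38a2 (0.0339) were called, among 41 genes in all.

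STZ+AOS against STZ had 0 members called, and 0 of all genes (0%); in this contrast 657 genes (6.07%) had an unadjusted p under 0.05, none of them a member. Differences ran from -0.08 for Slc7a5 (95% interval -0.39 to 0.23) to 0.45 for Slc7a2 (-0.02 to 0.92). Without STZ+AOS mouse 3, Slc7a2 came down to 0.19 and Slc38a2 to 0.06, and the others ran from -0.10 for Slc7a5 to 0.42 for Slc3a1, with 0 members called. The intervals are wide enough to hold changes of up to 1.27 in Slc3a1 on the log2 scale.

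Slc7a2, Slc38a2, Slc38a3 and Slc38a4 were higher in both transplanted groups than in Con, Slc3a2 passed the same tests less firmly, and no member was called between a transplanted group and STZ. A10-FMT against STZ had 0 of 8 members called (24 of 10602 genes, 0.226%), and Con-FMT against STZ had 0 of 8 as well (1 gene, 0.00943%). In each, 1 member, Slc38a2, had an unadjusted p under 0.05, as did 20.9% and 20.1% of all genes. Against Con, A10-FMT had 5 members higher and 0 lower (15.9% of all genes higher), and Con-FMT also 5 and 0 (17.5%). These contrasts share STZ or Con mice with the one that chose the list.

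Slc38a2 was the member that stood lower in the transplanted mice than in STZ mice. It read 36.72, 29.77 and 32.54 RPKM in A10-FMT and 22.12, 30.57 and 36.22 RPKM in Con-FMT, and all 6 mice were below the lowest STZ mouse at 41.65 RPKM. In A10-FMT 13.9% of all genes were lower than in STZ without overlap, and in Con-FMT 9.38%. The log2 differences were -0.55 (SE 0.18, limma adjusted p 0.139) and -0.73 (SE 0.18, adjusted p 0.0894), so neither passed. With the 6 transplanted mice pooled, a contrast chosen after these values were seen, the difference was -0.64 (SE 0.16, limma adjusted p 0.0501, with 3.63% of all genes called). Without STZ mouse 3 both single contrasts passed (-0.66, adjusted p 0.0495, and -0.84, adjusted p 0.0195), but so did 1347 and 1640 of all genes.

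Against Con, Slc38a2 remained higher in both groups (log2 difference 1.11, limma adjusted p 0.00393 in A10-FMT, and 0.93, adjusted p 0.00935 in Con-FMT). The other system A gene, Slc38a4, overlapped STZ in both, with 388.62, 411.00 and 457.15 RPKM in A10-FMT and 463.72, 310.88 and 331.79 RPKM in Con-FMT. Its differences from STZ were 0.11 (95% interval -0.28 to 0.50) and -0.10 (-0.48 to 0.29). The ratio of Slc38a2 to Slc38a4 was 0.0794 ± 0.0131 in A10-FMT and 0.0851 ± 0.0328 in Con-FMT, beside 0.0787 in Con and 0.127 in STZ. The lowest STZ ratio was 0.108. The A10-FMT range of 0.0712 to 0.0945 did not reach it, and the Con-FMT range of 0.0477 to 0.109 barely did. Con-FMT also held the lowest ratio of all groups, and differences in the ratio were not tested.

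**Figure D3:**
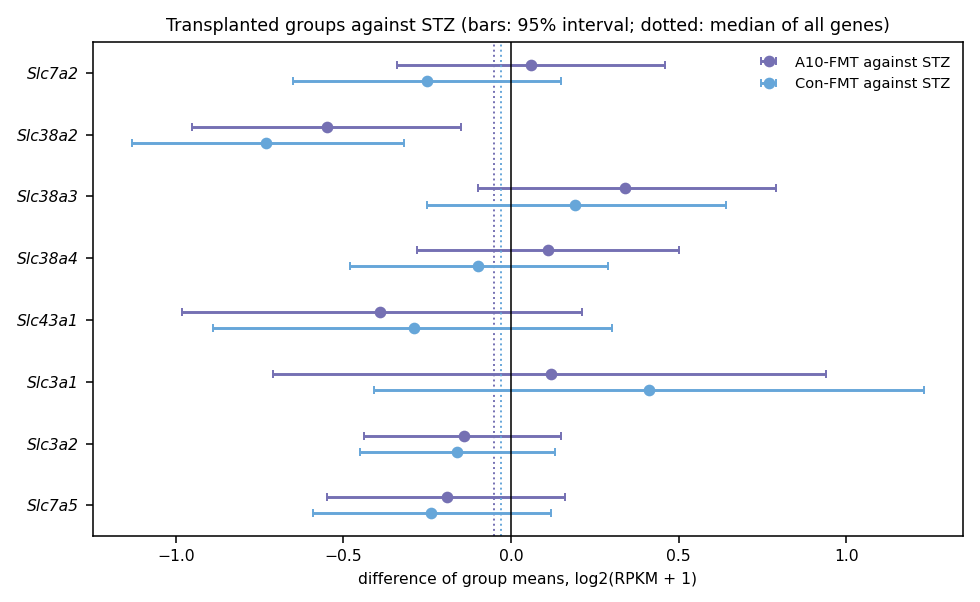
Difference of group means in log2(RPKM + 1) between each transplanted group and STZ; bars are 95% intervals before adjustment and dotted lines the median of all genes (-0.05 and -0.03). The interval of Slc38a2 lay below 0 in both contrasts (-0.95 to -0.15 and -1.13 to -0.32), and those of the other 7 genes included 0.

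Slc7a2 overlapped STZ in both groups, at 100.48, 100.21 and 129.53 RPKM in A10-FMT and 110.44, 66.86 and 92.63 RPKM in Con-FMT. All 6 values were more than 4 times the highest Con value. Against Con the log2 differences were 2.94 (SE 0.18, limma adjusted p 4.17e-05) and 2.63 (SE 0.18, adjusted p 4.75e-05), and against STZ 0.06 (95% interval -0.34 to 0.46) and -0.25 (-0.65 to 0.15).

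Slc38a3 was high and even in the transplanted mice, at 853.77, 877.40 and 1012.55 RPKM in A10-FMT and 839.23, 881.79 and 750.89 RPKM in Con-FMT. Each of these mice was above STZ mice 2 and 3 and below STZ mouse 1. The difference from Con was 1.10 (SE 0.20, limma adjusted p 0.00679) in A10-FMT and 0.95 (SE 0.20, adjusted p 0.0123) in Con-FMT. The difference from STZ was 0.34 (95% interval -0.10 to 0.79) and 0.19 (-0.25 to 0.64).

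Slc3a2 was also above Con in both groups, with 30.20, 30.88 and 28.48 RPKM in A10-FMT and 35.73, 24.13 and 29.79 RPKM in Con-FMT (log2 differences 0.51 and 0.50, limma adjusted p 0.0251 and 0.0273). Both calls were lost under median-ratio scaling (adjusted p 0.0669 and 0.111), and leaving out 1 mouse at a time ended the call in 5 of 6 fits for A10-FMT (adjusted p 0.0303 to 0.102, kept without Con mouse 2) and in 4 of 6 for Con-FMT (0.00948 to 0.109, kept without Con mouse 2 or Con-FMT mouse 2). The calls of the other 4 genes held in all 6 such fits of each contrast. Slc43a1 read 6.60, 6.80 and 9.91 RPKM in A10-FMT and 10.56, 7.06 and 7.40 RPKM in Con-FMT, above every Con mouse, but did not pass (limma adjusted p 0.127 and 0.0841).

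Slc3a1 was 15.76, 14.54 and 19.63 RPKM in A10-FMT, below all Con mice (log2 difference -1.16, SE 0.37, limma adjusted p 0.051). In Con-FMT it was 11.88, 38.21 and 18.77 RPKM, and mouse 2 lay within the Con range (log2 difference -0.87, SE 0.37, limma adjusted p 0.12; without that mouse -1.30, adjusted p 0.0212). Slc7a5 was 0.76, 1.19 and 1.37 RPKM in A10-FMT and 1.42, 0.69 and 1.04 RPKM in Con-FMT, overlapping Con in both, with differences of 0.08 and 0.03 that turned negative under median-ratio and quantile scaling.

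No difference between the donors of the microbiota was detectable in the 8 genes. A10-FMT against Con-FMT had 0 members called and 0 of all genes (0%), with 0 members and 303 of all genes (2.86%) at an unadjusted p under 0.05 in limma. The widest differences were 0.31 for Slc7a2 (95% interval -0.10 to 0.71) and -0.30 for Slc3a1 (-1.12 to 0.52). With 3 mice a group these intervals do not exclude changes of that size.

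Ordered by mean level, the groups without STZ were at the bottom for 7 of the 8 genes and at the top for Slc3a1. For Slc7a2 the order was STZ+AOS (150.0 ± 53.8 RPKM), A10-FMT (110.0 ± 16.9), STZ (106 ± 15.1), Con-FMT (90.0 ± 21.9), AOS (25.8 ± 2.04) and Con (13.5 ± 1.57). Only the steps from Con-FMT to AOS and from AOS to Con were free of overlap. For Slc38a3 the steps from STZ+AOS to AOS and from AOS to Con were free of overlap, for Slc38a2 those from STZ to A10-FMT and from AOS to Con, and for Slc43a1 those from A10-FMT to Con and from Con to AOS. Slc38a4 had such a step only from Con-FMT to AOS, and Slc3a2 only from A10-FMT to AOS. For Slc3a1 and Slc7a5 every pair of neighbours overlapped. Steps free of overlap were common over all genes. Without overlap, 40.5% were higher in STZ+AOS than in AOS, 19.1% higher in AOS than in Con, and 13.9% lower in A10-FMT than in STZ. Shares for the other steps are not given here. The summed RPKM of the 8 was 708 ± 29.2 in Con, 868 ± 63.4 in AOS, and between 1350 ± 312 (STZ) and 1530 ± 139 (A10-FMT) in the 4 groups given STZ; Slc38a3 and Slc38a4 supply most of that sum.

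The members varied together in part. Around the group means of the 18 libraries, the correlation of log2(RPKM + 1) was 0.87 between Slc38a3 and Slc43a1, 0.81 between Slc7a2 and Slc3a2, 0.74 between Slc7a2 and Slc38a4, and -0.79 between Slc38a4 and Slc3a1. Slc38a2 was apart from the other system A gene, with 0.05 against Slc38a4, although the correlation over all libraries was 0.80. These are descriptions over 18 libraries that share 6 treatments, with no test. The libraries include STZ+AOS mouse 3, which was highest for Slc7a2, Slc38a2 and Slc3a2, and the correlations were not computed without it.

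The genes most like each member over the 18 libraries were found by Pearson's r of log2(RPKM + 1). These include STZ+AOS mouse 3, the library with acinar markers, and r was not computed without it. The genes named as closest to Slc7a2, Slc38a2 and Slc3a2 were all highest in that library. Slc7a2 was closest to Etnppl, which breaks down phosphoethanolamine (r = 0.981), to Got1, the cytosolic aspartate aminotransferase (0.977), and to Abhd4 (0.977). Slc38a4 was closest to Npc1, a lysosomal cholesterol carrier (0.968), Etnppl (0.967) and Slc7a2 (0.966). Slc38a2 was closest to Rasgef1b (0.964), Yod1 (0.964) and Erf (0.957). Slc43a1 was closest to Stard10, Ahcy and Timm8a1 (0.946, 0.944 and 0.942), Slc3a2 to Zyx, Psmd9 and Sgta (0.967, 0.965 and 0.964), and Slc7a5 to Anp32b, Abcf1 and Mcrs1 (0.872, 0.820 and 0.802).

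Slc38a3 was closest to Dbp, a transcription factor whose liver level follows the circadian clock (r = 0.964, and 0.915 around the group means), followed by Pdcd6 (0.934) and Aph1a (0.933). Dbp was 0.66, 0.58 and 0.68 RPKM in Con and 3.41, 0.36 and 1.78 in AOS. In STZ it was 88.02, 18.69 and 6.75 RPKM, in the same order over the mice as Slc38a3. A10-FMT mice had 62.28, 78.66 and 80.29 RPKM, Con-FMT mice 53.94, 37.89 and 27.27, and STZ+AOS mice 16.55, 76.46 and 24.27. All mice given STZ were above all mice without it, and the time of day of sampling was not given in the sources used here; the part of either in Slc38a3 was not tested.

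Slc3a1 was closest to the fibrinogen chains Fga (r = 0.898) and Fgg (0.897), which the liver secretes for clotting, and to Atp11a (0.892). Fga was 3066.12, 2035.37 and 2644.07 RPKM in Con and 1042.2, 1672.16 and 1461.16 RPKM in STZ. Con-FMT mouse 2 (2552.52 RPKM) and STZ+AOS mouse 1 (4034.37 RPKM) were the highest of their groups for Fga, as they were for Slc3a1, and so was Con mouse 1. In STZ, A10-FMT and AOS different mice were the highest for the 2 genes.

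**Figure D4:**
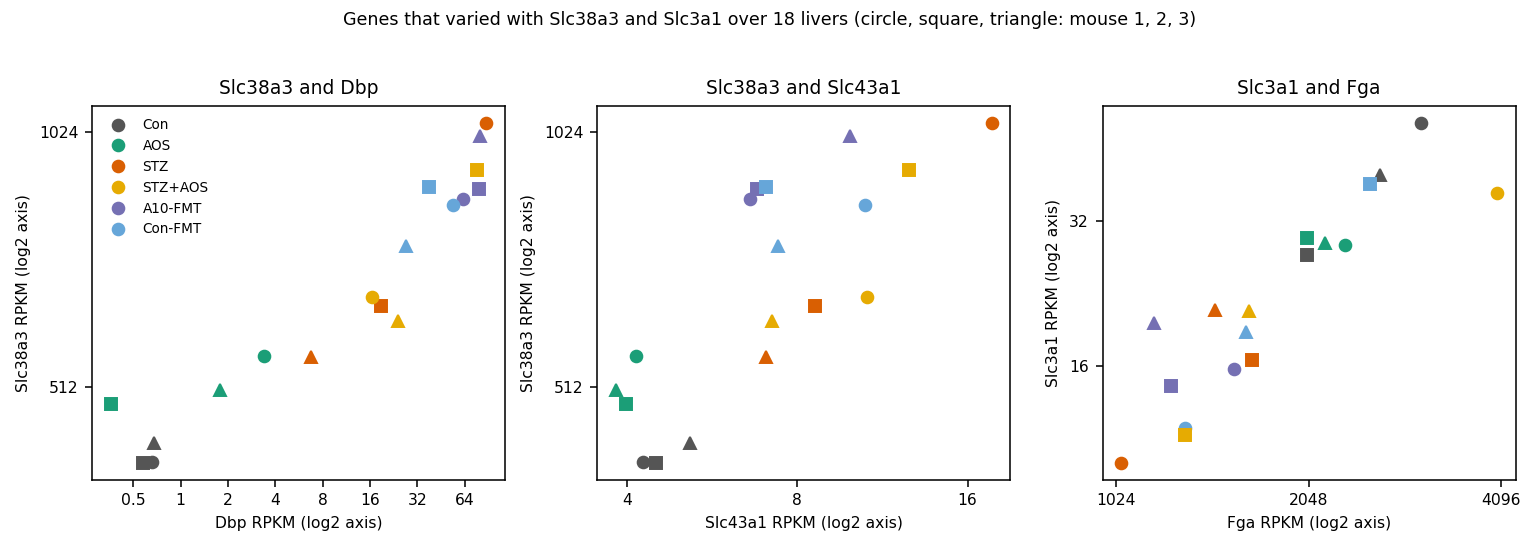
RPKM of Slc38a3 against Dbp and against Slc43a1, and of Slc3a1 against Fga, in 18 livers; all axes are log2 axes, colours are groups and symbols are mice 1 to 3. Dbp was 3.41 RPKM or less in Con and AOS and 6.75 to 88.02 RPKM in the groups given STZ, and the lowest and highest Slc38a3 values were 416.14 RPKM (Con) and 1049.53 RPKM (STZ).

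Other carriers of amino acids were described by family, in lists written with earlier results of these data known. Of 13 further Slc7 and Slc3 genes, 12 were in the table and 3 passed the filter of 1 RPKM in 3 libraries. In STZ+AOS against AOS 2 of them were lower, where 6.11% of all genes were lower. They were Slc7a7, a basic amino acid exchanger (3.25 ± 0.450 to 1.53 ± 0.348 RPKM, log2 difference -0.75, limma adjusted p 0.0038), and Slc7a4 (-0.42, adjusted p 0.0283). In STZ against Con 0 of the 3 were called, where 33% of all genes were higher and 5.52% lower. The widest differences were 0.42 for Slc7a8 and -0.21 for Slc7a7. Of 8 further Slc38 genes 4 passed the filter and 0 were called in either contrast. Under median-ratio scaling 1 of them was called in STZ against Con, as lower, where 2893 of all genes were called in either direction. In STZ+AOS against AOS the count stayed at 0 under that scaling. Without rescaling, Slc38a9, a lysosomal arginine sensor, differed by 0.18 in STZ against Con and 0.20 in STZ+AOS against AOS, and Slc38a7 by 0.18 and 0.10.

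Of 18 carriers of other families, 10 were kept in the fit of 4 groups and 11 in that of 6. In STZ against Con 6 were higher and 2 lower (33% and 5.52% of all genes), and in STZ+AOS against AOS 5 were higher and 1 lower (31.8% and 6.11% of all genes). These counts fell under median-ratio scaling and under quantile normalization, to 2 higher and 2 lower in the first contrast and 2 higher and 1 lower in the second, and without the filter on low values the first had 3 higher and 0 lower. Slc16a10, the aromatic amino acid transporter TAT1, led both. It was 18.37, 13.83 and 16.12 RPKM in Con and 45.26, 36.00 and 31.25 in STZ (log2 difference 1.16, limma adjusted p 0.00148), and 14.95, 14.90 and 14.83 RPKM in AOS against 32.00, 45.97 and 73.50 in STZ+AOS (1.62, adjusted p 0.000343). Slc6a6, the taurine transporter, rose by 0.86 (adjusted p 0.00418) and 0.63 (adjusted p 0.00639). The proton-coupled Slc36a1 was 0.34 lower in STZ+AOS than in AOS (adjusted p 0.0178). Slc36a4 was 0.39 higher there (adjusted p 0.0312). In STZ against Con, Slc6a13, a GABA and taurine carrier, was 0.52 higher (adjusted p 0.00935) and Slc1a2, a glutamate carrier, 0.50 higher (adjusted p 0.034). The median of this list was 0.43 in STZ against Con and 0.17 in STZ+AOS against AOS, with 0.21 over all genes in both.

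Most enzymes that use the carried amino acids were higher in STZ-treated livers. This list was written with earlier results of these data known, so its counts and p-values are descriptions and not independent support. In STZ against Con 23 of the 26 kept were higher and 0 lower, where 33% of all genes were higher, and in STZ+AOS against AOS 19 of 27 were higher and 0 lower, where 31.8% were higher. The medians were 1.01 and 0.91, against 0.21 over all genes in both. Oat, which converts ornithine, a substrate of Slc7a2, went from 78.1 ± 4.69 to 835 ± 165 RPKM (log2 difference 3.39, limma adjusted p 0.00019) and from 78.8 ± 11.7 to 840 ± 351 RPKM (3.32, adjusted p 2.18e-05). Got1 rose by 2.75 (adjusted p 0.00019) and 2.65 (adjusted p 6.86e-06), and Cps1, which starts the urea cycle, by 1.37 (adjusted p 0.000512) and 1.10 (adjusted p 0.000365). Gls2, the liver glutaminase, rose by 1.52 in STZ (adjusted p 0.000471), and Sds, the serine dehydratase, by 1.91 in STZ+AOS (adjusted p 0.000223). In A10-FMT and Con-FMT against Con 20 and 21 of 26 were higher (15.9% and 17.5% of all genes). Against STZ 0 were called in either (0.226% and 0.00943% of all genes).

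Genes of the amino acid response, the programme that ATF4 drives when amino acids are short, were mixed. This list, too, was written with earlier results of these data known. In both STZ contrasts 9 of 18 kept were higher and 1 lower, beside 33% and 31.8% of all genes higher, with medians of 0.50 and 0.58. Sesn2, a leucine sensor, rose by 1.10 and 1.47 (limma adjusted p 0.00146 and 0.000343), Cth, which makes cysteine, by 1.56 and 1.66 (0.000625 and 0.000391), Vldlr by 1.67 and 1.08 (0.000432 and 0.000805) and Trib3, an inhibitor of AKT, by 2.50 and 2.49 (0.00232 and 0.000944). Atf4 itself and Asns, named after their values were seen, did not pass: Atf4 differed by 0.23 and 0.31 (limma adjusted p 0.0939 and 0.0761), and Asns by -0.01 and 1.02 (adjusted p 0.992 and 0.0734). The lower gene, also named after its value was seen, was Mthfd2 in STZ (-0.69, adjusted p 0.00383) and Fgf21 in STZ+AOS (-0.87, adjusted p 0.0146).

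The list counts of STZ+AOS against AOS were rerun without STZ+AOS mouse 3, an alternative chosen after its acinar markers were seen. Called genes went from 10 to 6 in the amino acid response list (5 of them higher), from 6 to 2 among carriers of other families (both higher) and from 2 to 1 among the further Slc7 and Slc3 genes. The enzyme list went from 19 to 21 called, all higher, and the further Slc38 genes stayed at 0. The share of all genes called in that fit is not given here, so whether these counts moved with the whole table cannot be read from them. Values of single genes of these lists are given with all mice.

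**Figure D5:**
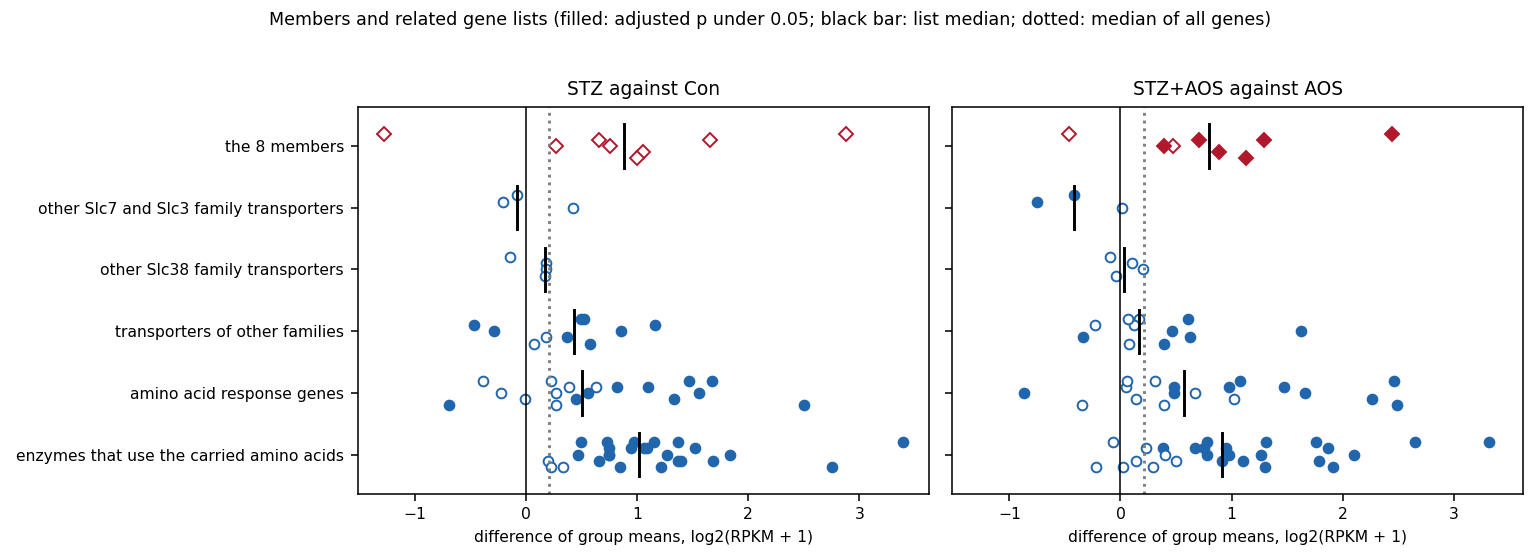
Difference of group means in log2(RPKM + 1) of the 8 members (diamonds) and of genes of 5 related lists (circles) in STZ against Con and STZ+AOS against AOS; filled symbols passed an adjusted p under 0.05 (members are not tested in the first contrast), black bars are list medians and dotted lines the median of all genes (0.21). The enzyme list had medians of 1.01 and 0.91, and the further Slc38 genes 0.18 and 0.03. All 5 lists were written with earlier results of these data known.

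Some markers of cell types differed with STZ as well; the genes named for this were chosen after their values were seen. Of 7 hepatocyte markers 3 were lower and 0 higher in both STZ contrasts (5.52% and 6.11% of all genes were lower), with medians of -0.70 and -0.20. They were Apoa1, Ttr and Serpina1a, which encode secreted plasma proteins. Ttr went from 4900 ± 1180 RPKM in Con to 2540 ± 177 in STZ (log2 difference -0.92, limma adjusted p 0.0056). The hepatocyte sum, most of it Alb, overlapped between Con (45700 to 62800 RPKM) and STZ (39900 to 55700). Periportal hepatocyte markers summed to 3840 to 5050 RPKM in Con and 7660 to 9800 in STZ. Of these 7 of 9 were higher and 2 lower (33% and 5.52% of all genes). Pericentral ones summed to 2420 to 3280 and 4410 to 6750, with 6 of 9 higher (33% of all genes). Of the periportal and pericentral genes, 5 of 9 and 2 of 9 are also in the enzyme list.

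The sum of the stellate cell list rested mostly on 1 gene. In the stellate and Kupffer cell lists 1 marker each was called higher, where 33% of all genes were higher. The summed RPKM of 6 stellate cell markers was 72.0 to 83.1 in Con and 108 to 131 in STZ, most of it Dcn (64.8 ± 5.86 and 107 ± 8.62 RPKM), the 1 marker called. The list's median log2 difference was 0.10, under the 0.21 of all genes. The sum of 6 Kupffer cell and macrophage markers was 56.3 to 88.4 in Con and 88.2 to 194 in STZ, which overlap, and again 1 marker was called, Marco (1.81 to 3.34 RPKM in Con and 9.67 to 67.35 in STZ). The Kupffer list's median log2 difference was 0.56, above the 0.21 of all genes. Dcn and Marco were also those called in STZ+AOS against AOS. Summed lymphocyte markers, 0 of which passed the filter, were at 2.12 to 2.34 RPKM in Con and 0.69 to 1.42 in STZ. Intestinal epithelium markers summed to 244 to 266 and 521 to 893 RPKM, most of it Apoa4, an apolipoprotein gene of liver too. The acinar sum was 32.2 to 41.2 RPKM in Con and 3.58 to 8.86 in STZ, most of it Cela1, the 1 marker of that list kept (log2 difference -2.55, limma adjusted p 0.000534). The cholangiocyte, endothelial, erythroid and kidney tubule sums overlapped between Con and STZ. Of 6 endothelial markers 2 were higher, with a median of 0.50. Of the markers kept, 1 of 3 cholangiocyte and 1 of 4 erythroid genes were lower, where 5.52% of all genes were lower. In bulk liver, fewer cells of a type and less RNA per cell cannot be told apart, and the part of cell composition in the transporter values was not tested.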

How the data were processed

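Livers of 18 mice were sequenced. Per the methods of the study the authors used an Illumina HiSeq instrument, mapped reads to reference genes with SOAPaligner and deposited RPKM per gene; the submitters' processing notes name Bowtie 0.12.2 and mm10 instead, and which aligner made the deposited RPKM could not be settled. RPKM carry no read counts, so count tests were not used. The low-value filter and search range of the relative depth estimate were set after seeing the data. The range was changed more than once for reasons other than fit. The 4 versions run used 16 to 19 genes. They gave 0.926 to 0.928 at the low end and 1.09 to 1.1 at the high end. All began from equal depth and kept only genes that fitted whole steps, which favours a result near equal depth. All value columns matched a sample label (0 did not).

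Genes reaching 1 RPKM in 3 or more libraries were kept, 10602 in the 12 libraries of the paper's groups and 10822 in all 18, and log2(RPKM + 1) was used. Fits were made by limma 3.58.1 under R 4.3.3 (eBayes with trend, two-sided), with Benjamini-Hochberg adjustment over all genes of a contrast. Contrasts with an AOS group used the fit of 18 libraries. Calls needed an adjusted p below 0.05, and rose or fell is written of called genes. All 8 members passed the filter. Of the 19057 symbols 26 looked like dates and 3 were repeated.

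The members and the gene lists were chosen with earlier results of these data known. Named genes were the members, at most 4 called genes per list and contrast by smallest adjusted p (or the 2 widest differences where none was called), and the 3 genes most correlated with each member; a few others are said to be named after their values were seen. Positions are GENCODE M21 (GRCm38, the assembly of mm10) by symbol, and windows are RefSeq. On simulated data with 200 genes changed by 2 on the log2 scale, the fit recovered 195 (A10-FMT against STZ, 10602 genes). For STZ+AOS against AOS (10822 genes) it recovered 194, with 11 false calls in each. Smaller changes were not simulated, and the noise was drawn independently for each gene and library. The recovery therefore does not apply to differences as small as those of the members between transplanted and STZ mice.

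Alternatives were median-ratio scaling, quantile normalization, a pseudocount of 0.1, no filter, limma without trend, other groups in the fit, a replicate block and leaving out each mouse.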

Additional observations from a re-analysis of the deposited data

How the results depend on the processing

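With 3 mice a group the precision is limited, and near 1 RPKM, where Slc7a5 lies, sampling error could not be calculated. Rescaling removed a shift of the median gene of 0.21 in both STZ contrasts, 0.16 in A10-FMT against Con and 0.19 in Con-FMT against Con.

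The number of members 2-fold apart between STZ and Con went from 5 to 3 under median-ratio scaling and quantile normalization, and ranged from 3 to 5 when 1 mouse was left out. Over all genes the number went from 693 to 597 under median-ratio scaling and to 628 without STZ mouse 1. Against STZ, the members called in either transplanted group ranged from 0 to 1 when 1 mouse was left out (1 without STZ mouse 3), and stayed at 0 with both transplanted groups together, a contrast chosen after seeing the data. AOS against Con went from 0 to 2 with only the compared groups in the fit. The cause of these changes was not tested. The other counts of called members stayed within 1.5 times their value.

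Small differences changed sign. Slc7a5 went to -0.03 (median-ratio) and -0.02 (quantile) for A10-FMT against Con, and for Con-FMT against Con to -0.09 and -0.06, and Slc38a3 in STZ+AOS against STZ to 0.01 (quantile). When 1 mouse was left out, differences from STZ ran in A10-FMT from -0.06 to 0.16 for Slc7a2 and -0.16 to 0.34 for Slc3a1, in Con-FMT from -0.27 to 0.02 for Slc38a4, -0.54 to 0.07 for Slc43a1 and -0.02 to 0.78 for Slc3a1, and in STZ+AOS from -0.19 to 0.27 for Slc38a3 and -0.29 to 0.31 for Slc43a1. In A10-FMT against Con-FMT they ran from -0.02 to 0.33 for Slc38a2, -0.26 to 0.07 for Slc43a1, -0.67 to 0.13 for Slc3a1, -0.13 to 0.15 for Slc3a2 and -0.09 to 0.17 for Slc7a5. Against Con, A10-FMT ran from -0.05 to 0.20 and Con-FMT from -0.10 to 0.17 for Slc7a5, and AOS from 0.00 to 0.16 for Slc3a2.

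The mouse numbers were not taken to pair the samples, since nothing says what they share and not every pair was above 0.1: correlations of deviations between same-numbered mice ran from -0.249 to 0.472, with a median of 0.0315 and 16 of 45 above 0.1, beside a median of -0.0127 and 16 of 90 above 0.1 for mice of different numbers. Of the 18 libraries, 9 were closest to their own number out of 3 possible. With the number as a replicate block, 4 members in place of 5 were called in Con-FMT against Con (Slc3a2, adjusted p 0.0508) and 5 in place of 6 in STZ+AOS against AOS (Slc7a5, adjusted p 0.057), and the other counts of members called or 2-fold apart were the same.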
